A study of Nicotiana tabacum with 36 samples.

Results

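The members are 2 tobacco genes annotated as coatomer subunit alpha, Nitab4.5_0001840g0100 on chromosome 12 and Nitab4.5_0003674g0060 on chromosome 20, in a count table of 35519 genes. Gene descriptions were at hand for hub genes of co-expression modules alone, so further genes of this name may be among the rest. They were chosen for this annotation and because their levels shifted in opposite directions between the cultivars, so the difference between the cultivars is described below without a test. Both passed the filter on low counts, together with 23738 other genes. Leaves were taken from five-leaf-stage seedlings of Nicotiana tabacum cv. Taiyan8 (TT, cold-susceptible) and cv. Yanyan97 (YT, cold-resistant), both raised on MS medium under long days. Seedlings of each cultivar were sampled before cold (0 h) and after 0.5, 1, 2, 4 and 8 h at 4 °C, with 3 biological replicates a group and 36 mRNA-seq libraries in all. The sample labels and the published methods give different growth temperatures and humidities, and this was not resolved. No plants left in the warm for equal times were analysed here, so cold and time of day cannot be told apart in any comparison with 0 h. Because whole leaves were sequenced, fewer cells of one type and less RNA per cell cannot be told apart either.

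Coatomer is the protein coat of COPI vesicles, which bud from the Golgi and carry escaped residents and cycling receptors back to the endoplasmic reticulum. The small GTPase ARF1 recruits the complex to the membrane as a unit. The alpha subunit is its largest component, folds into propeller and solenoid parts of the outer cage together with beta prime and epsilon, and reads dilysine retrieval signals on cargo. In yeast the gene is essential. Tobacco is an allotetraploid, in which many genes are kept as a pair of copies from the progenitor species. Which progenitor either copy came from is not given in the sources used here.

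The chromosome 12 copy lies at chr12:112683830-112688922 on the minus strand of the Nitab-v4.5 assembly, and the chromosome 20 copy at chr20:13540605-13545662 on the plus strand. The gene models had the same structure, with 3 exons of 245, 495 and 2954 bp in the order of transcription and a summed exon length of 3694 bp in each. The introns differed, at 862 and 537 bp in the chromosome 12 copy and 830 and 534 bp in the chromosome 20 copy. No other gene of the annotation had these exon lengths or this summed length. Levels of the copies can therefore be compared per length, and CPM (counts scaled by library size with TMM factors) rank them as a length-corrected unit would.

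**Figure D1:**
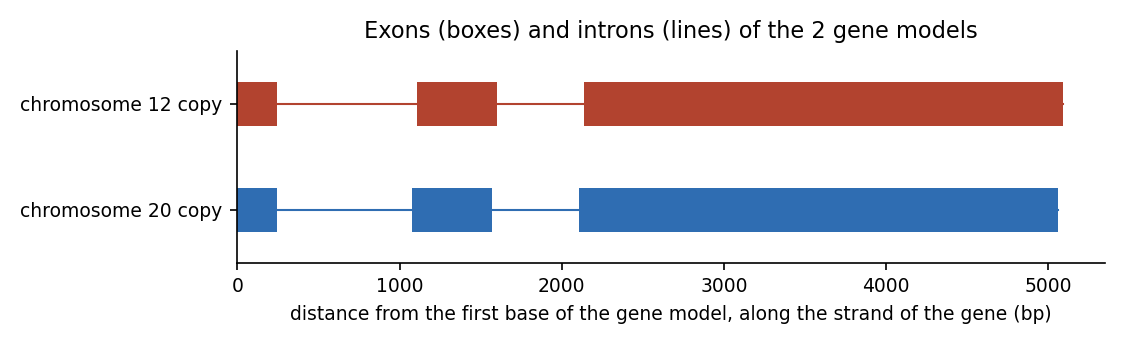
Exons (boxes) and introns (lines) of the pair, drawn to scale in bp from the first base of each gene model along its own strand. The 3 exons have equal lengths in both models (245, 495 and 2954 bp) and only the introns differ.

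A qRT-PCR assay was designed for the chromosome 12 copy, and its primers are shown because they are the only sequences of a member at hand. They are printed 5′ to 3′, and no base is capitalised because no part of them was compared with another sequence.
Forward primer, Nitab4.5_0001840g0100: tttgttccagcacagcaagg
Reverse primer, Nitab4.5_0001840g0100: ccgatgaaaagcaggtctgt
Each primer has 20 bases and a GC content of 50%. Whether the primers also match the chromosome 20 copy was not tested, and the qRT-PCR data were not analysed here.

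Libraries held between 15484160 and 26691552 counts on genes (median 24424913), and only YT 4 h replicate 3 fell below 22239372. Reads were counted without regard to strand, and a read that fits both copies may be lost or placed on the other, so values of a single copy carry that uncertainty. As a check on the cold labels, the C-repeat binding factor gene NtCBF2 (Nitab4.5_0001083g0010) went from a mean of 0.642 CPM at 0 h to 142 CPM at 0.5 h in TT, and from 0.764 to 27.9 CPM in YT.

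In TT both copies were expressed at similar levels, whereas in YT nearly all counts of the pair lay on the chromosome 20 copy. Over the 18 TT libraries the chromosome 12 copy averaged 95.4 ± 15.5 CPM (SD, n = 18) and the chromosome 20 copy 91.4 ± 11.5 CPM (SD, n = 18). Over the 18 YT libraries the means were 0.869 ± 0.444 and 203 ± 23.9 CPM (SD, n = 18). The groups of the cultivars were far apart for the chromosome 12 copy and clearly apart for the chromosome 20 copy at every time point.

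The chromosome 12 copy stood at 122, 134 and 105 CPM in the 3 TT libraries before cold, the highest group of all. Its TT values were 100.5, 94.4 and 95.9 CPM at 0.5 h, 90.1, 91.1 and 82.6 CPM at 1 h, and 95.4, 102 and 104 CPM at 2 h. They were 90.8, 98.3 and 87.0 CPM at 4 h and 69.0, 74.0 and 80.6 CPM at 8 h, the lowest TT group. Each TT library taken in the cold lay below each TT library taken at 0 h.

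In YT the same gene was counted with 7 to 44 reads per library, against 1568 to 3184 in TT. Its YT values were 0.801, 0.775 and 0.943 CPM at 0 h, 0.567, 1.602 and 0.874 CPM at 0.5 h, and 0.828, 0.338 and 0.525 CPM at 1 h. They were 0.274, 0.804 and 0.357 CPM at 2 h, 1.03, 0.531 and 1.16 CPM at 4 h, and 1.08, 2.03 and 1.12 CPM at 8 h. No YT library was at 0, and the highest YT value remained far below the lowest TT value of 69.0 CPM. In CPM the YT groups at 0.5, 1, 2 and 4 h overlapped the group at 0 h, and the 3 values at 8 h lay above it. In the deposited TPM the group at 2 h (0.0874 to 0.281) lay wholly below the group at 0 h (0.306 to 0.3595).

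The chromosome 20 copy stood at 118, 108 and 94.3 CPM in TT at 0 h, 89.5, 81.7 and 84.1 CPM at 0.5 h, and 91.3, 79.9 and 72.7 CPM at 1 h. Its TT values were 101, 95.2 and 97.5 CPM at 2 h, 95.3, 95.4 and 98.4 CPM at 4 h, and 74.1, 87.5 and 80.5 CPM at 8 h. In CPM the groups at 0.5, 1 and 8 h lay wholly below the group at 0 h, and those at 2 and 4 h overlapped it. In the deposited TPM only the group at 8 h lay wholly below the group at 0 h.

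In YT the chromosome 20 copy measured 195, 215 and 239.6 CPM at 0 h, 174, 180.2 and 225 CPM at 0.5 h, and 174, 169.8 and 166 CPM at 1 h. It reached 204, 188 and 206 CPM at 2 h, 209, 219.9 and 220.0 CPM at 4 h, and 205, 247 and 216 CPM at 8 h. The lowest YT value, 166 CPM, was above the highest TT value of 118 CPM. Among the YT groups, only that at 1 h lay wholly below the one at 0 h in CPM. In the deposited TPM the groups at 0.5, 1 and 2 h (highest values 72.1, 73.3 and 73.1) all lay below the lowest value at 0 h, 75.1.

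**Figure D2:**
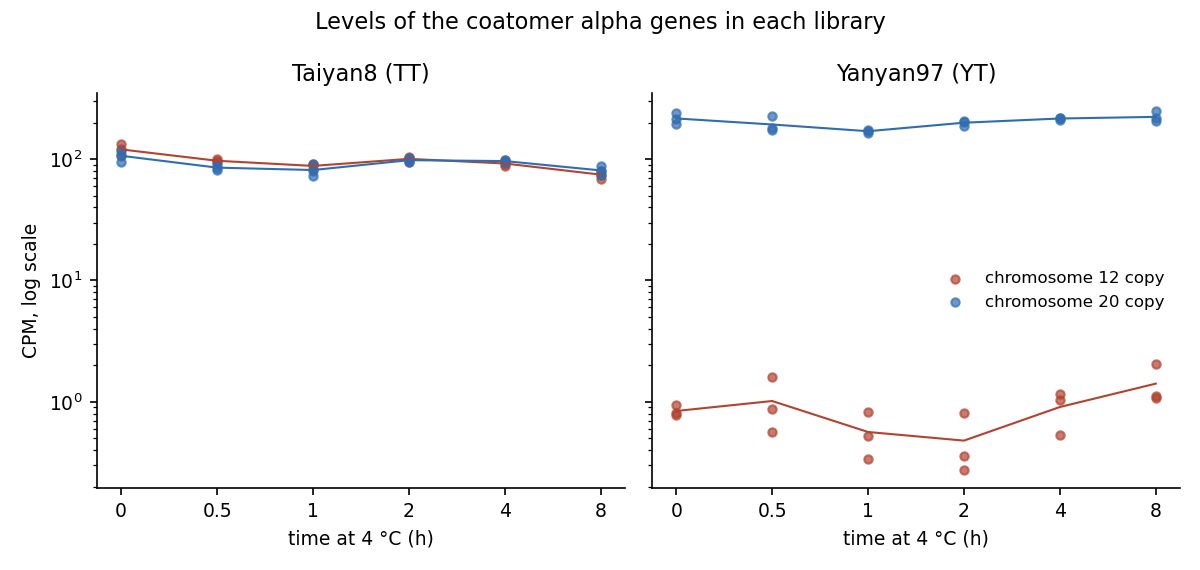
CPM of each copy (log axis) against hours at 4 °C, one point per library and lines through the means of 3. In TT the copies lie together between 69.0 and 134 CPM, and in YT the chromosome 12 copy lies at 2.03 CPM or less while the chromosome 20 copy lies at 166 CPM or more.

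Ordered by mean level, the chromosome 12 copy ran from 120.3 CPM in TT at 0 h through TT at 2, 0.5, 4 and 1 h to 74.5 CPM in TT at 8 h. The YT groups followed, from 1.41 CPM at 8 h through 0.5, 4, 0 and 1 h to 0.478 CPM at 2 h. Of 11 neighbouring pairs of groups in this order, 8 overlapped in their replicates, and the 3 gaps lay after TT 0 h, before TT 8 h and between the cultivars. For the chromosome 20 copy the order began with YT at 8, 0 and 4 h (223, 216 and 216 CPM), went on with YT at 2, 0.5 and 1 h, and ended with TT at 0, 2, 4, 0.5, 1 and 8 h (107 down to 80.7 CPM). Again 8 of 11 neighbours overlapped.

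The log2 difference of the chromosome 12 copy in YT against TT was -7.16 at 0 h (SE 0.299), -6.57 at 0.5 h (SE 0.291) and -7.27 at 1 h (SE 0.308). It was -7.68 at 2 h (SE 0.317), -6.70 at 4 h (SE 0.300) and -5.73 at 8 h (SE 0.280). As ratios of the mean CPM, TT was between 52.8 times (8 h) and 210.1 times (2 h) as high as YT, and this range rests on the few YT counts.

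For the chromosome 20 copy the log2 difference was 1.02 at 0 h (SE 0.114), 1.18 at 0.5 h (SE 0.114) and 1.06 at 1 h (SE 0.114). It was 1.03 at 2 h (SE 0.114), 1.17 at 4 h (SE 0.114) and 1.47 at 8 h (SE 0.115). YT was thus 2.03 to 2.76 times as high as TT. These differences chose the pair and are given as a description.

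In CPM the sum of the pair differed little between the cultivars up to 2 h. The sum stood at 239.8, 241 and 199.5 CPM in TT and 195, 216 and 241 CPM in YT at 0 h, and the groups overlapped. At 1 h it was 181, 171 and 155 CPM in TT and 175, 170.1 and 166 CPM in YT, again with overlap. The log2 difference of the sum, YT against TT, was -0.06 at 0 h (SE 0.108), 0.09 at 0.5 h (SE 0.108), 0.01 at 1 h (SE 0.108) and 0.01 at 2 h (SE 0.108).

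Later the sums lay further apart in CPM. At 4 h the sum was 186, 194 and 185 CPM in TT and 209.8, 220.4 and 221 CPM in YT, a log2 difference of 0.20 (SE 0.108). At 8 h it was 143, 161 and 161 CPM in TT and 206, 249 and 217 CPM in YT, a log2 difference of 0.53 (SE 0.109). The cultivars did not overlap in CPM at either time. At 4 h the difference in response of the sum was 0.27 (SE 0.153, edgeR's quasi-likelihood interaction test, adjusted p = 0.3255) and was not called. In the deposited TPM, which carry no TMM scaling, the log2 difference of the sum at 0, 1 and 2 h was 0.33, 0.26 and 0.26. It was 0.28 at 4 h and 0.56 at 8 h in TPM, and the TPM groups did not overlap at 0, 0.5 and 2 h either. In TPM the median gene was itself 0.35, 0.22 and 0.18 higher in YT at 0, 1 and 2 h (13497 genes of 10 CPM or more). Relative to the median gene the sum in TPM differed by -0.02, 0.04 and 0.07 at 0, 1 and 2 h, and by 0.22 and 0.51 at 4 and 8 h.

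The share of the chromosome 12 copy in the counts of the pair was 51.0 ± 2.59% in TT (SD, n = 18) and 0.421 ± 0.197% in YT (SD, n = 18). Single TT libraries ranged from 45.8% (8 h replicate 2, exact Clopper-Pearson 95% interval 44.2 to 47.4%) to 55.4% (0 h replicate 2, 54.1 to 56.7%). Single YT libraries ranged from 0.134% (2 h replicate 1, 0.0540 to 0.276%, 7 of 5216 counts) to 0.881% (0.5 h replicate 2, 0.636 to 1.19%, 42 of 4767 counts). These intervals cover counting error only. Whether the few YT counts came from the chromosome 12 copy or were placed there from the chromosome 20 copy was not tested.

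Within TT the mean share at 0, 0.5 and 1 h was 53.0 ± 2.25%, 53.3 ± 0.358% and 52.0 ± 2.07% (SD, n = 3 each). At 2, 4 and 8 h it was 50.6 ± 1.83%, 48.8 ± 1.91% and 48.0 ± 2.11% (SD, n = 3 each). Each 8 h and 4 h library had a lower share than each 0 h library. The log2 ratio of the copies changed over the 6 time points in TT (F = 4.13, permutation test with 100000 resamples, p = 0.0228, adjusted over 2 cultivars 0.0456). The adjusted p rose to 0.0515 for shares of TPM, and to between 0.143 and 0.317 when any one replicate number was left out, so the call rests on having all 3. No single time point could be called, since 3 against 3 cannot go below p = 0.10 in an exact permutation test (4 and 8 h against 0 h, exact p = 0.1, two-sided, adjusted over 10 comparisons 0.333).

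In YT the share went from 0.387 ± 0.0261% at 0 h to 0.244 ± 0.158% at 2 h and 0.618 ± 0.172% at 8 h (SD, n = 3 each). The log2 ratio of the copies over time did not pass the permutation test in YT (F = 2.10, p = 0.135, adjusted 0.135), and without replicate 2 its adjusted p was 0.0348.

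**Figure D3:**
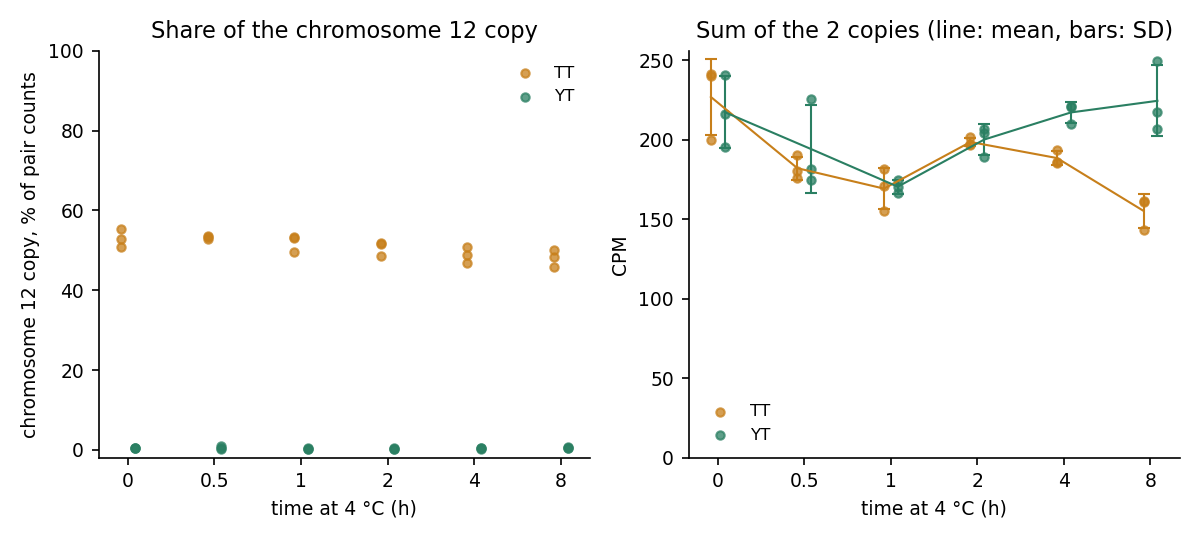
Left, the chromosome 12 copy as a percentage of the counts of the pair in each library; right, the sum of the pair in CPM, with the mean and SD of 3 libraries (time axis in h at 4 °C). The share lies between 45.8% and 55.4% in TT and below 1% in YT, while the sums in CPM overlap up to 2 h and separate at 4 and 8 h.

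In the cold both copies fell in TT, most at 8 h, and edgeR called neither copy at a single time point in YT. The chromosome 12 copy was called lower in 1 of 5 comparisons of TT with 0 h, at 8 h, where its log2 change was -0.69 (SE 0.215, edgeR's quasi-likelihood test, Benjamini-Hochberg adjusted p = 0.0106). Of all genes tested, 7.35%, 8.21%, 15%, 17% and 20.6% were called lower in TT at 0.5, 1, 2, 4 and 8 h, so a call at 8 h is common. At 0.5, 1, 2 and 4 h the log2 changes were -0.31, -0.45, -0.26 and -0.39, with adjusted p between 0.145 and 0.377 by the same edgeR test. DESeq2 called the chromosome 12 copy at 1 h (-0.43, adjusted p = 0.0270) and 4 h (-0.36, adjusted p = 0.0497) as well. The 5 comparisons share the 0 h libraries.

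The chromosome 20 copy was called lower in TT in 3 of 5 comparisons. Its log2 change was -0.32 at 0.5 h (SE 0.113, edgeR's quasi-likelihood test, Benjamini-Hochberg adjusted p = 0.0479). It was -0.39 at 1 h (SE 0.113, edgeR adjusted p = 0.0156) and -0.40 at 8 h (SE 0.113, edgeR adjusted p = 0.00506). At 2 and 4 h the changes were -0.12 and -0.14, with edgeR adjusted p of 0.441 and 0.339. With only the libraries compared, the 8 h call of the chromosome 20 copy was lost (-0.34, edgeR adjusted p = 0.0552), and it was lost in TPM too (-0.29, limma adjusted p = 0.0513). No change of either copy reached a log2 size of 1.

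The early calls of the chromosome 20 copy in TT depended on single libraries. The 0.5 h call was lost when any one of the 6 libraries was left out, except TT 0 h replicate 3 (log2 change -0.41 to -0.25). The 1 h call was lost without TT 0 h replicate 1 or 2 or TT 1 h replicate 2 or 3 (-0.48 to -0.31 over all 6). Both calls were also lost with only the libraries compared (edgeR adjusted p = 0.103 and 0.1003), and the 0.5 h call with DESeq2's size factors (edgeR adjusted p = 0.0646) or no filter (0.0722). In deposited TPM the same changes were -0.06 at 0.5 h (limma on log2(TPM + 1), adjusted p = 0.788) and -0.19 at 1 h (limma, adjusted p = 0.297). The median gene shifted between the scales here, from -0.05 in CPM to 0.20 in TPM at 0.5 h and from -0.04 to 0.16 at 1 h. Relative to the median gene the chromosome 20 copy changed by -0.28 in CPM and -0.26 in TPM at 0.5 h, and by -0.35 and -0.34 at 1 h.

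In YT the log2 changes of the chromosome 20 copy at 0.5, 1, 2, 4 and 8 h were -0.17, -0.35, -0.12, 0.00 and 0.04. The 1 h value came nearest to a call (SE 0.113, edgeR's quasi-likelihood test, Benjamini-Hochberg adjusted p = 0.0616), and without YT 0 h replicate 1 it passed (-0.42, adjusted p = 0.0499). Of all genes tested, 1.95%, 5.94%, 15.5%, 24.1% and 33.6% were called in YT at the 5 times. The chromosome 12 copy changed by 0.27, -0.56, -0.79, 0.07 and 0.74 at the same times. Its 8 h value had an SE of 0.314 and an edgeR adjusted p of 0.0693. By DESeq2 the chromosome 12 copy was called at 8 h (0.78, adjusted p = 0.0156) and the chromosome 20 copy at 1 h (-0.33, adjusted p = 0.0379). In edgeR the 8 h value of the chromosome 12 copy passed without YT 8 h replicate 1 (0.89, edgeR adjusted p = 0.0458), and the 2 h value passed without YT 2 h replicate 2 (-1.41, adjusted p = 0.0246).

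Tested over the 5 cold time points at once, the copies gave the following values with edgeR's quasi-likelihood F-test and Benjamini-Hochberg adjustment. In TT, where 52.5% of genes were called, the adjusted p was 0.115 for the chromosome 12 copy and 0.0118 for the chromosome 20 copy. In YT, where 42.5% were called, it was 0.00513 and 0.0419. For the chromosome 12 copy both F-tests depended on the libraries in the fit. With only the libraries of 1 cultivar the adjusted p was 0.00248 in TT and 0.256 in YT (edgeR), and with DESeq2 it was 2.42e-06 and 0.174. Leaving out TT 0 h replicate 1 moved the TT value of the chromosome 20 copy to 0.0533. Its YT value lost the call without any one of 13 of the 18 YT libraries (adjusted p 0.0109 to 0.127 over the 18).

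The sum of the pair was called lower in TT in 3 of 5 comparisons, at 0.5 h (log2 -0.32, SE 0.108, edgeR's quasi-likelihood test, Benjamini-Hochberg adjusted p = 0.0439), 1 h (-0.42, SE 0.108, adjusted p = 0.00669) and 8 h (-0.55, SE 0.109, adjusted p = 0.000155). The 8 h change is a fall of the mean sum from 227 ± 23.7 to 155 ± 10.5 CPM (SD, n = 3 each), and it kept its call in every alternative run. The 0.5 h call was lost without any one library other than TT 0 h replicate 3 (-0.40 to -0.27) and the 1 h call without TT 1 h replicate 3 (-0.36). With DESeq2's size factors or no filter the 0.5 h call was lost too (edgeR adjusted p = 0.0604 and 0.0697). The 1 h call was also lost with only the libraries compared (-0.39, edgeR adjusted p = 0.0655) and in TPM (-0.21, limma adjusted p = 0.170). The 4 h value of -0.27 (edgeR adjusted p = 0.0544) passed without TT 0 h replicate 3 (-0.35).

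In YT the sum changed by -0.35 at 1 h (SE 0.108, edgeR's quasi-likelihood test, Benjamini-Hochberg adjusted p = 0.0502) and by 0.05 at 8 h (adjusted p = 0.788). The 1 h value passed without YT 0 h replicate 1 (-0.42) and by DESeq2 (-0.33, adjusted p = 0.0234). Over the 5 cold time points the edgeR adjusted p of the sum was 0.00184 in TT and 0.0303 in YT, and the YT call was lost when YT 1 h replicate 1, 2 or 3 was left out (0.0667, 0.0879 and 0.09996).

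**Figure D4:**
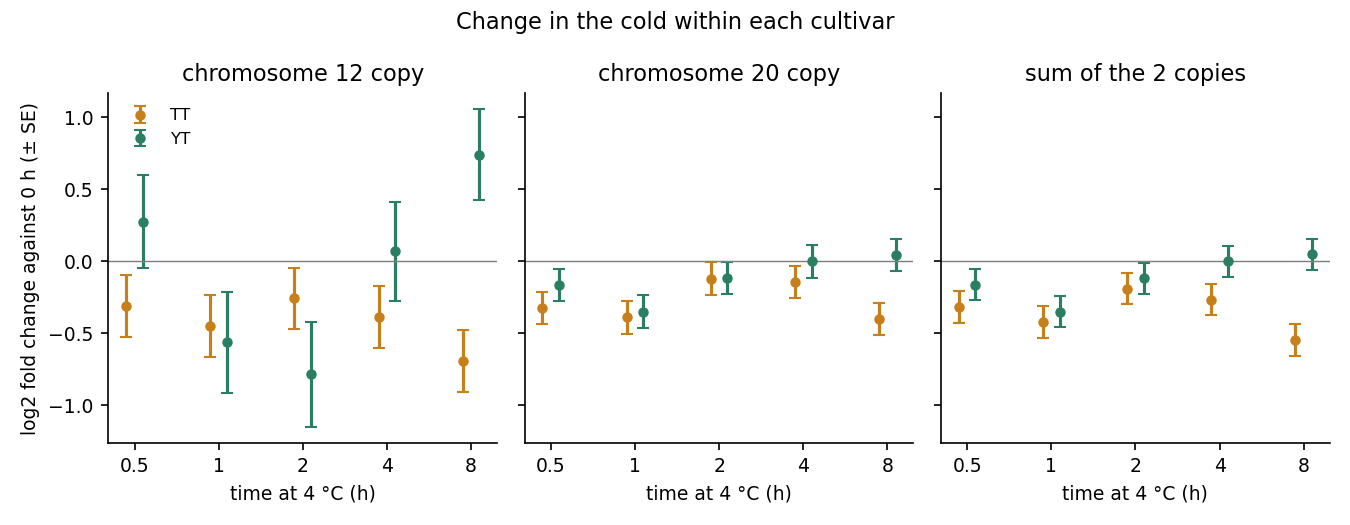
Log2 fold change against 0 h (points, with SE as bars) of each copy and of their sum at 0.5 to 8 h of 4 °C in TT and YT. At 8 h the TT values lie at -0.69, -0.40 and -0.55 and the YT values at 0.74, 0.04 and 0.05.

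At 8 h the response of the chromosome 12 copy and of the sum differed between the cultivars. The response in YT minus that in TT was 1.43 for the chromosome 12 copy (SE 0.380, edgeR's quasi-likelihood interaction test, Benjamini-Hochberg adjusted p = 0.0219) and 0.59 for the sum (SE 0.153, adjusted p = 0.0186). At this time 7.33% of all genes tested were called. For the chromosome 20 copy the difference was 0.44 (SE 0.159, edgeR adjusted p = 0.0795), which did not pass in edgeR and passed by DESeq2 (0.44, adjusted p = 0.0459) and without TT 0 h replicate 3 (0.52, edgeR adjusted p = 0.0414). At 0.5, 1, 2 and 4 h, where 2.04%, 0.114%, 2.61% and 1.15% of genes were called, no difference passed, with values from -0.53 to 0.58 for the chromosome 12 copy, 0.00 to 0.16 for the chromosome 20 copy and 0.07 to 0.27 for the sum.

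The 8 h difference of the chromosome 12 copy sets a TT fall from 120.3 ± 14.2 to 74.5 ± 5.81 CPM against YT values of 0.840 ± 0.0906 and 1.41 ± 0.540 CPM (SD, n = 3 each), which rest on 21 to 44 counts per library. Whether these YT counts came from the chromosome 12 copy or were placed there from the chromosome 20 copy was not tested. The 8 h difference of the chromosome 12 copy lost its call without TT 0 h replicate 2 (1.35, edgeR adjusted p = 0.0518), YT 0 h replicate 1 (1.40, 0.0520) or YT 8 h replicate 2 (1.08, 0.126). The sum lost its call at 8 h without TT 0 h replicate 1 or 2, TT 8 h replicate 1, YT 0 h replicate 1 or YT 8 h replicate 2, with values from 0.51 to 0.68 over the 12 libraries left out in turn. With only the libraries compared, the difference of the sum was 0.60 and its edgeR adjusted p 0.1102. In deposited TPM the difference of the sum was 0.23 (limma on log2(TPM + 1), adjusted p = 0.299). Relative to the median gene, the sum at 8 h changed by -0.51 in CPM and -0.48 in TPM in TT, and by 0.03 and 0.02 in YT.

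Over the 5 cold time points jointly, the difference in response had an edgeR adjusted p of 0.0199 for the chromosome 12 copy (8.04% of genes called), 0.230 for the chromosome 20 copy and 0.0671 for the sum. The first lost its call without YT 8 h replicate 2 (0.0598). The last passed without TT 0 h replicate 3 (0.0420) or YT 0.5 h replicate 3 (0.0318), and by DESeq2 (0.0115).

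Within TT the copies varied together over the 18 libraries. Pearson's r of their log2 CPM was 0.760 (permutation test, p = 0.00027, adjusted over 2 cultivars 0.00054) and Spearman's rho 0.643 (permutation p = 0.00511, adjusted 0.0102). Without the 2 libraries farthest from the median of the chromosome 12 copy r was 0.662. With each time point centred on its mean, r was 0.496 (permutation p = 0.166, adjusted 0.331), so the relation within time points was not called. In YT r was 0.406 (permutation p = 0.0953) and rho 0.488 (permutation p = 0.0415), on 7 to 44 counts of the chromosome 12 copy. In log2(TPM + 1) the YT values were 0.0907 and 0.0898. A value over both cultivars together is not used for this purpose, since they form separate clusters.

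The genes most like each copy over the 36 libraries were themselves genes that differ between the cultivars. Among 13497 genes averaging 10 CPM or more, the log2 CPM of the chromosome 12 copy was closest to that of Nitab4.5_0001840g0060 on chromosome 12 (r = 0.986), annotated as a purple acid phosphatase, a class of enzymes that release phosphate. Next came Nitab4.5_0007178g0020 on chromosome 20 (r = 0.985), annotated as a Mutator-like transposase, and Nitab4.5_0001840g0050 on chromosome 12 (r = 0.983). Nitab4.5_0001492g0060 (r = 0.967) and Nitab4.5_0001242g0090 (r = 0.964), both on chromosome 23, completed the 5. All 5 were called TT-higher at all 6 time points (edgeR, log2 threshold of 1), as were 0.425% of the 23740 genes tested. A gene of high r here has to share the difference between the cultivars, so nothing is read from these calls.

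The lowest r with the chromosome 12 copy belonged to Nitab4.5_0001740g0010 and Nitab4.5_0001740g0080 on chromosome 17 (both -0.980), Nitab4.5_0000143g0310 on chromosome 11 (-0.978), Nitab4.5_0002055g0160 on chromosome 23 (-0.978) and Nitab4.5_0000714g0090 on chromosome 4 (-0.976). Nitab4.5_0000143g0310 is annotated as the alpha subunit of transcription factor IIF, which acts in initiation by RNA polymerase II, and Nitab4.5_0002055g0160 as a tetraspanin, a membrane protein. All 5 were called YT-higher at all 6 time points, as were 0.649% of the genes tested. A gene of very low r here has to differ between the cultivars the other way, so nothing is read from these calls.

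The chromosome 20 copy was most like Nitab4.5_0000268g0040 on chromosome 17 (r = 0.968), Nitab4.5_0001088g0190 on chromosome 11 (r = 0.967) and Nitab4.5_0000319g0200 on chromosome 4 (r = 0.966), the last annotated as a polyadenylate-binding protein. Nitab4.5_0001735g0110 on chromosome 13 (r = 0.956), annotated as a cysteine proteinase inhibitor, and Nitab4.5_0000714g0090 (r = 0.955) followed. All 5 were called YT-higher at all 6 time points, as were 0.649% of the genes tested, and nothing is read from these calls either. Its lowest values were with Nitab4.5_0007178g0020 (-0.956), Nitab4.5_0001840g0060 (-0.940), Nitab4.5_0000209g0170 (-0.939), Nitab4.5_0001492g0060 (-0.937) and Nitab4.5_0001041g0110 (-0.931). The r of the copies with each other over the 36 libraries was -0.930. The pair was chosen for opposite shifts between the cultivars, so nothing is read from this value.

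With each cultivar's mean subtracted, the closest genes were other ones. The chromosome 20 copy then lay closest to Nitab4.5_0003104g0050 (r = 0.840), Nitab4.5_0001612g0110 (r = 0.815) and Nitab4.5_0003757g0110 (r = 0.814). The chromosome 12 copy lay closest to Nitab4.5_0004301g0040 (r = 0.676), Nitab4.5_0001383g0120 (r = 0.644) and Nitab4.5_0000613g0050 (r = 0.641). None of these 6 genes was called between the cultivars at any time point. The share of all genes without such a call is not given here, so nothing is read from this. The r of the copies with each other was then 0.441, which 303 genes exceeded for the chromosome 12 copy and 1351 for the chromosome 20 copy.

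Genes beside the chromosome 12 copy were also low in YT. Of 11 other genes whose identifiers share its scaffold prefix, 3 had 0 counts in every library and 8 were tested. Of these 8, 7 had between 480 and 68661 counts over the TT libraries and between 0 and 141 over the YT libraries. All 7 could pass the filter on low counts through TT alone, so these numbers are a description. The nearest tested gene, Nitab4.5_0001840g0110, had 791 counts over the 18 TT libraries and 0 over the 18 YT libraries. The exception was Nitab4.5_0001840g0080, with 423930 counts in TT and 345999 in YT and no call at any time point. Of the 8 other genes on the scaffold of the chromosome 20 copy 3 were tested. None was called at all 6 time points, beside 0.649% (YT-higher) and 0.425% (TT-higher) of all genes tested. Of the 3, 1 was never called, and the others were called YT-higher at 1 time point each. The share of all genes called at 1 time point or never is not given here, so nothing is read from this. The nearest tested neighbours of the chromosome 20 copy were Nitab4.5_0003674g0070 (781 counts in TT, 2244 in YT) and Nitab4.5_0003674g0010 (733 and 1370).

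**Figure D5:**
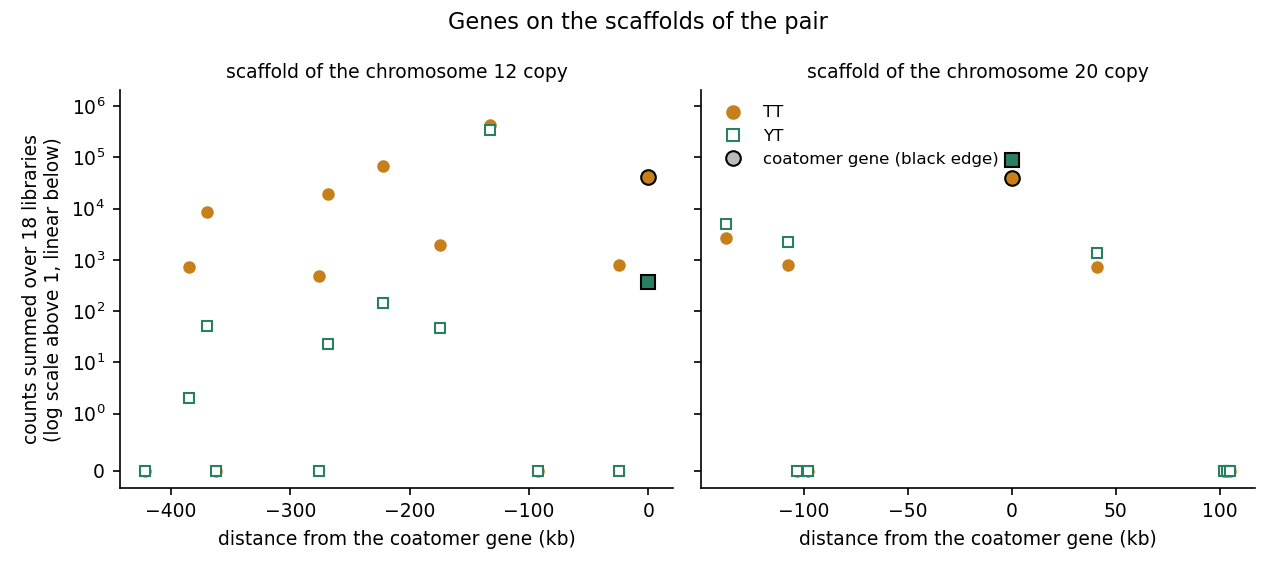
Counts summed over the 18 libraries of each cultivar (log axis above 1, linear below) for each gene on the scaffolds of the pair, against distance in kb from the coatomer gene, which has a black edge. On the chromosome 12 scaffold TT counts exceed YT counts widely at 7 tested genes beside the coatomer gene, and not at the gene with 423930 and 345999 counts.

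The pair belongs to the hub genes of the brown co-expression module, a list that was chosen on these same libraries and is no independent evidence of direction. Of the 48 other hub genes, all tested, 33 were YT-higher and 9 TT-higher at all 6 time points, beside 0.649% and 0.425% of all genes tested. Over the 5 cold time points 17 of the 48 passed in TT and 3 in YT by edgeR's F-test, against 52.5% and 42.5% of all genes. At 8 h, 5 of the 48 differed in response between the cultivars, beside 7.33% of all genes, a share near that background. Only the pair is described as coatomer in the hub tables, and since the files do not pair identifiers with names, the other coatomer subunits and ARF1 were not analysed here.

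Gene pairs of the same build were compared with the coatomer pair as a description, in a set chosen after the values of the pair were seen. There were 175 pairs of tested genes on different chromosomes with equal exon lengths and at least 3 exons each, the coatomer pair included. Its change of share and its opposite directions are what chose the pair, so they were not ranked among these pairs. The log2 difference of its sum over all time points, 0.13, was close to the median size of 0.14 over the 175 pairs. At single time points the difference of its sum ran from -0.06 (0 h) to 0.53 (8 h). Values of the other pairs by time point are not given here.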

How the data were processed

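Leaf mRNA of 2 tobacco cultivars was sequenced at 6 time points with 3 replicates each, and libraries were grouped from the sample labels alone. The authors checked reads with FastQC 0.11.5, trimmed them with Trim Galore 0.6.4, aligned them to the Nitab-v4.5 genome with HISAT2 2.0.5 and dropped those of mapping quality under 20 (SAMtools 1.9). Counts as deposited are whole reads per gene from featureCounts 1.6.4, not normalized, counted without strand, per the file headers. The authors also deposited TPM from StringTie 1.3.4d, scaled for length and depth.

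Counts were filtered with filterByExpr (23740 of 35519 genes), scaled with TMM factors (0.797 to 1.18) and fitted with edgeR 4.0.16 in R 4.3.3 as 12 group means over 36 libraries. Tests were two-sided quasi-likelihood tests with Benjamini-Hochberg adjustment over all genes and a call at adjusted p under 0.05. A log2 fold change above 1 was required as well for calls between the cultivars. The published methods name DESeq2, which was run as an alternative (version 1.42.0). For the sum, the pair's rows were replaced by their sum and the fit repeated. Log2 CPM used a prior count of 2. Shares were compared within a cultivar by permutation (100000 resamples, or exact for 3 against 3) and given exact Clopper-Pearson 95% intervals. Scripts were tested on simulated data. The first criterion of that test, the number of changed genes recovered, was not met and was replaced by others after this was seen, with the fitting code unchanged. In it many genes with a log2 fold change of 1 were missed, so a change of that size or less that was not called is not shown to be absent.

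The members and lists were chosen with earlier results of these data known. Genes were named by a rule: the pair, the 5 genes of highest and of lowest r with each copy, the 3 of highest r with cultivar means subtracted, the nearest tested scaffold neighbours and NtCBF2. Nitab4.5_0001840g0080 and the pairs of equal exon lengths were added after values were seen. Alternatives were DESeq2, its size factors in edgeR, no filter, only the libraries compared, a replicate block, TPM, other pseudocounts or minimum CPM, and each library left out. The use of limma 3.58.1 on log2(TPM + 1) for the cold responses was chosen after seeing the data. Same-numbered replicates did not pair: none of the 10 comparisons with 0 h had every same-number correlation over 0.1. RefSeq names matched 0 identifiers of the files, so no genome or protein sequence was used, and leaf markers were not analysed here. Replicates differed by more than counting noise (mean chi-squared per gene 16.1 to 101.7). Headers of the deposited TPM end in a letter, A or B, whose meaning is not given. All TT 0 h libraries carry B, and all TT 4 h and YT 0 h libraries carry A, so letter and group cannot be told apart in these comparisons. YT 8 h replicate 2 is the only YT library with B. It gave 90.05 and 101.7 against the other YT 8 h replicates (25.71 between them), while YT 4 h, all A, reached 76.19. An effect of the letter was not tested.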

Additional observations from a re-analysis of the deposited data

Results flagged for a closer look

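The response to 8 h of cold differed between the cultivars for the chromosome 12 copy, by 1.43 on the log2 scale (YT minus TT, edgeR's quasi-likelihood interaction test, Benjamini-Hochberg adjusted p = 0.0219). All 3 TT libraries at 8 h lay below all 3 at 0 h, and all 3 YT libraries at 8 h lay above all 3 at 0 h. The joint test of the same difference over the 5 cold time points gave an adjusted p of 0.0199. For the sum of the copies the difference at 8 h was 0.59 (adjusted p = 0.0186), with all 3 TT libraries at 8 h below those at 0 h and YT libraries that overlapped. The 8 h call of the chromosome 12 copy was lost in 3 of 12 runs that left out 1 library, and it rests on 21 to 44 YT counts per library. Whether those counts came from the chromosome 12 copy or were placed there from the chromosome 20 copy was not tested. The 8 h call of the sum was lost in 5 of 12 such runs. It was also lost with only the libraries compared (0.60, edgeR adjusted p = 0.1102) and in TPM (0.23, limma adjusted p = 0.299).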

How the results depend on the processing

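The direction of the difference between the cultivars held for both single copies under every setting run, and the fall of the sum and of the chromosome 12 copy in TT at 8 h kept their calls in every setting. Weak cold responses did not. Depth limits the chromosome 12 copy in YT, with 7 to 44 counts per library. The cause of the changes below was not tested unless a value shows it.

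With a replicate block (same-number correlations had a median of 0.00322, and 10 of 36 libraries correlated best with their own number, so the numbers do not pair the samples), the chromosome 20 copy lost its calls in TT at 0.5 h (-0.32, edgeR adjusted p = 0.0559) and over time in YT (0.0549), and no other call of the pair or its sum changed.

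DESeq2 made calls that edgeR did not, for the chromosome 12 copy at -0.43 and -0.36 in TT at 1 and 4 h, 0.78 in YT at 8 h, and over time in TT (adjusted p = 2.42e-06), while its YT value over time was not called (0.174). It also called -0.33 for the chromosome 20 copy and for the sum in YT at 1 h, 0.44 for the difference in response of the chromosome 20 copy at 8 h, and that of the sum over time (adjusted p = 0.0115). It gave 0.026 for both in YT at 4 h, not called. With DESeq2's size factors in edgeR the chromosome 20 copy and the sum had -0.31 in TT at 0.5 h, with both calls lost, and 0.026 and 0.027 in YT at 4 h. Without a filter both had -0.32 in TT at 0.5 h and YT values over time of 0.0706 and 0.0558, and these 4 calls were lost.

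With only the libraries compared, calls were lost in TT for the chromosome 20 copy (-0.30, -0.36 and -0.34 at 0.5, 1 and 8 h) and the sum (-0.29 and -0.39 at 0.5 and 1 h), and for the difference in response of the sum at 8 h (0.60). The chromosome 12 copy was called in TT at 1 h (-0.42). In YT at 4 h the chromosome 20 copy had 0.0028 and the sum 0.0033. The edgeR adjusted p over time was 0.00248 (TT) and 0.2565 (YT) for the chromosome 12 copy, and in YT 0.1285 for the chromosome 20 copy and 0.125 for the sum.

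In TPM the share of the chromosome 12 copy over time in TT had an adjusted permutation p of 0.0515. The YT against TT values at 0, 1 and 2 h were 1.40, 1.31 and 1.27 for the chromosome 20 copy and 0.33, 0.26 and 0.26 for the sum. Of the 5 genes of highest r, 3 (chromosome 12 copy) and 1 (chromosome 20 copy) stayed in TPM, and 0 and 3 with a minimum mean of 1 CPM. With time points centred, r of the copies in TT was 0.496.

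With limma on log2(TPM + 1), added after seeing the data, calls were lost in TT for the chromosome 20 copy (-0.058, -0.19 and -0.29 at 0.5, 1 and 8 h) and the sum (-0.052 and -0.21 at 0.5 and 1 h). In YT the chromosome 20 copy and the sum had -0.20 and -0.19 at 8 h, and the chromosome 12 copy -0.046 at 4 h. Differences in response were -0.18, -0.086, -0.12 and -0.16 at 0.5, 1, 2 and 4 h for the chromosome 20 copy, 0.12 and 0.049 at 1 and 2 h for the chromosome 12 copy, and -0.19, -0.061, -0.055, -0.045 and 0.23 at the 5 times for the sum, whose 8 h call was lost. The limma adjusted p over time was 0.0172 (TT) and 0.343 (YT) for the chromosome 12 copy, 0.194 and 0.300 for the chromosome 20 copy, 0.193 (YT) for the sum, and 0.114 for the difference in response of the chromosome 12 copy.

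Leaving out 1 library at a time gave these ranges of log2 values. For the chromosome 12 copy in YT they were -0.22 to 0.56 (0.5 h), -1.41 to -0.50 (2 h), -0.12 to 0.41 (4 h) and 0.39 to 0.89 (8 h), and against TT -7.07 to -6.28 (0.5 h) and -8.30 to -7.39 (2 h). Its difference in response was 0.088 to 0.87 (0.5 h), -0.50 to 0.15 (1 h), -1.15 to -0.24 (2 h) and 1.08 to 1.58 (8 h). For the chromosome 20 copy they were -0.41 to -0.25 and -0.48 to -0.31 in TT (0.5 and 1 h), -0.42 to -0.27, -0.074 to 0.077 and -0.038 to 0.12 in YT (1, 4 and 8 h), and 1.06 to 1.25 against TT (0.5 h). Its difference in response was -0.038 to 0.13, -0.074 to 0.084 and 0.36 to 0.52 (1, 2 and 8 h), called at 8 h without TT 0 h replicate 3. For the sum they were -0.40 to -0.27, -0.51 to -0.36 and -0.35 to -0.22 in TT (0.5, 1 and 4 h), -0.42 to -0.27, -0.073 to 0.077 and -0.036 to 0.13 in YT (1, 4 and 8 h), -0.031 to 0.16 against TT (0.5 h) and 0.51 to 0.68 for the difference in response (8 h).

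Adjusted p over time ranged from 0.00752 to 0.0598 for the difference in response of the chromosome 12 copy, 0.00632 to 0.0533 (TT) and 0.0109 to 0.127 (YT) for the chromosome 20 copy, and, for the sum, 0.00682 to 0.09996 (YT) and 0.0318 to 0.164 (difference in response). For the share it ranged from 0.143 to 0.317 in TT and 0.0348 to 0.541 in YT.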
